A study of Arabidopsis thaliana with 3 samples.

Results

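The nuclear tRNA genes of Arabidopsis thaliana were examined for the presence of JMJ28, a JmjC-domain histone demethylase. They were all 625 genes of type tRNA on the 5 nuclear chromosomes in the NCBI gene table of the TAIR10.1 assembly, out of 37899 nuclear genes. Each was widened by 1000 bp on either side, and the region was counted as occupied when at least 1 peak summit of JMJ28 lay in it. The rule uses annotation only and no summit, and the genes were 69 to 90 bp long (median 73 bp). Summits came from chromatin immunoprecipitation and sequencing (ChIP-seq) of seedlings of the Col-0 ecotype in which FLAG-tagged JMJ28 was expressed from the JMJ28 promoter. Seedlings grew at 22 °C in long days and were 14 days old. There were 2 ChIP libraries, labelled as biological replicates, and 1 input library, all from the genotype JMJ28pro::JMJ28:3xFLAG, and DNA was pooled to reach enough material for a library. Material from plants lacking the tag was not analysed here, so DNA recovered irrespective of JMJ28 cannot be told apart from JMJ28 sites. Whether several independent transgenic lines were used is not given in the sources used here.

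Transfer RNAs carry amino acids to the ribosome. Their genes are short and are transcribed by RNA polymerase III from promoter elements that lie within the transcribed sequence, unlike protein-coding genes, which RNA polymerase II transcribes from upstream promoters. In Arabidopsis most tRNA genes are scattered singly among protein-coding genes, while some proline, tyrosine and serine tRNA genes lie in tandem arrays of repeated units. JMJ28 belongs to the KDM3 type of demethylases, which act on methylated lysine 9 of histone H3, a mark of silenced chromatin in plants.

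The measurements were 1 list of 18410 summits deposited by the authors, of which 18368 were nuclear. The list has no value per library, so it gives neither a spread between replicates nor a depth, and the shares below are descriptions of that list. No test was made on them. Intervals are exact 95% binomial intervals for shares and exact 95% Poisson intervals for densities, and cover counting error only. Neighbouring tRNA genes can share a summit and are not independent, so intervals over genes of arrays are too narrow. For a count of 0, the limit given is that of 3 counts, which is below the upper end of the exact interval. The score of a summit is the authors' own value, whose scale the file does not state, so it serves here only to rank summits.

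Over the whole set, tRNA genes had a JMJ28 summit about as often as the average gene. A summit lay in the region of 346 of 625 tRNA genes (55.4%, interval 51.4 to 59.3), against 20491 of 37274 other nuclear genes (55.0%). With flanks of 500 bp the shares were 46.7% and 48.4%, and with flanks of 2000 bp they were 65.6% and 63.2%. Protein-coding genes, which are far longer, had a share of 65.4% at the same flank of 1000 bp. Among other genes of small RNAs, the share was 73.9% of 287 snoRNA genes, which guide RNA modification, 56.1% of 82 snRNA genes of the spliceosome and 29.8% of 326 microRNA genes. The tRNA share thus lay between those of snoRNA and microRNA genes, close to that of snRNA genes. A single summit was found in 317 tRNA regions and 2 summits in 29, and no region held more. In all, 365 different summits lay in tRNA regions, or 1.99% of the nuclear summits.

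Where these summits lay differed from the rest of the list. Of the 365, 119 (32.6%) were outside protein-coding genes, against 2165 of all 18368 nuclear summits (11.8%). Of the 346 tRNA genes with a summit, 225 had it inside a protein-coding gene only, 108 outside only, and 13 had summits of both kinds. So at most of the 346 tRNA genes with a summit, a protein-coding gene held it. Close to the tRNA gene itself the summits were mostly intergenic: 105 summits lay inside a tRNA gene or within 100 bp of it, and 86 of them were outside protein-coding genes. A summit inside the tRNA gene was found at 29 of 625 genes (4.64%, interval 3.13 to 6.60), against 37.4% of other nuclear genes, 47.7% of protein-coding genes, 4.88% of snoRNA genes, 18.3% of snRNA genes and 0.920% of microRNA genes. Inside or within 100 bp, the share was 106 of 625 (17.0%, interval 14.1 to 20.1), against 39.6% of other nuclear genes, 49.9% of protein-coding genes, 11.1% of snoRNA genes, 28.0% of snRNA genes and 3.68% of microRNA genes.

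Counted per base, intergenic DNA next to tRNA genes was dense in summits. Outside protein-coding genes, the bases in or within 100 bp of a tRNA gene held 86 summits in 144 kb, or 596 summits per Mb (interval 476 to 736). Bases over 5000 bp from any tRNA gene held 37.4 per Mb (interval 35.8 to 39.1), so the density near tRNA genes was 15.9 times as high. Because tRNA genes lie close to protein-coding genes, where summits are frequent, the densities were also compared at equal distance from those genes. In the band 1 to 250 bp outside a protein-coding gene there were 872 summits per Mb within 100 bp of a tRNA gene (interval 676 to 1107, 67 summits), against 110 per Mb over 5000 bp away (interval 104 to 118, 972 summits). In the band of 251 to 500 bp the densities were 689 (interval 367 to 1179, 13 summits) and 57.2 per Mb. The ratios in these bands, 7.90 and 12.1, were lower than the 15.9 without bands.

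The density was highest in the tRNA gene and the 100 bp beside it. In the band of 1 to 250 bp from protein-coding genes it was 880 per Mb inside tRNA genes, 868 at 1 to 100 bp and 446 at 101 to 200 bp from them (interval 214 to 820). At 201 to 300 bp it was 168 per Mb (interval 20.4 to 608, 2 summits), and at 301 to 500 bp it was 60.9 per Mb (1 summit), intervals that include the 110 per Mb found far from tRNA genes. The same density, measured within 100 bp of other small RNA genes in the same band, was 1013 per Mb for snoRNA genes (interval 407 to 2087, 7 summits) and 939 per Mb for snRNA genes (interval 345 to 2044, 6 summits), against 90.6 for microRNA genes (interval 2.29 to 505, 1 summit). The intervals of tRNA, snoRNA and snRNA genes overlap, so the density was not seen at tRNA genes alone.

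**Figure D1:**
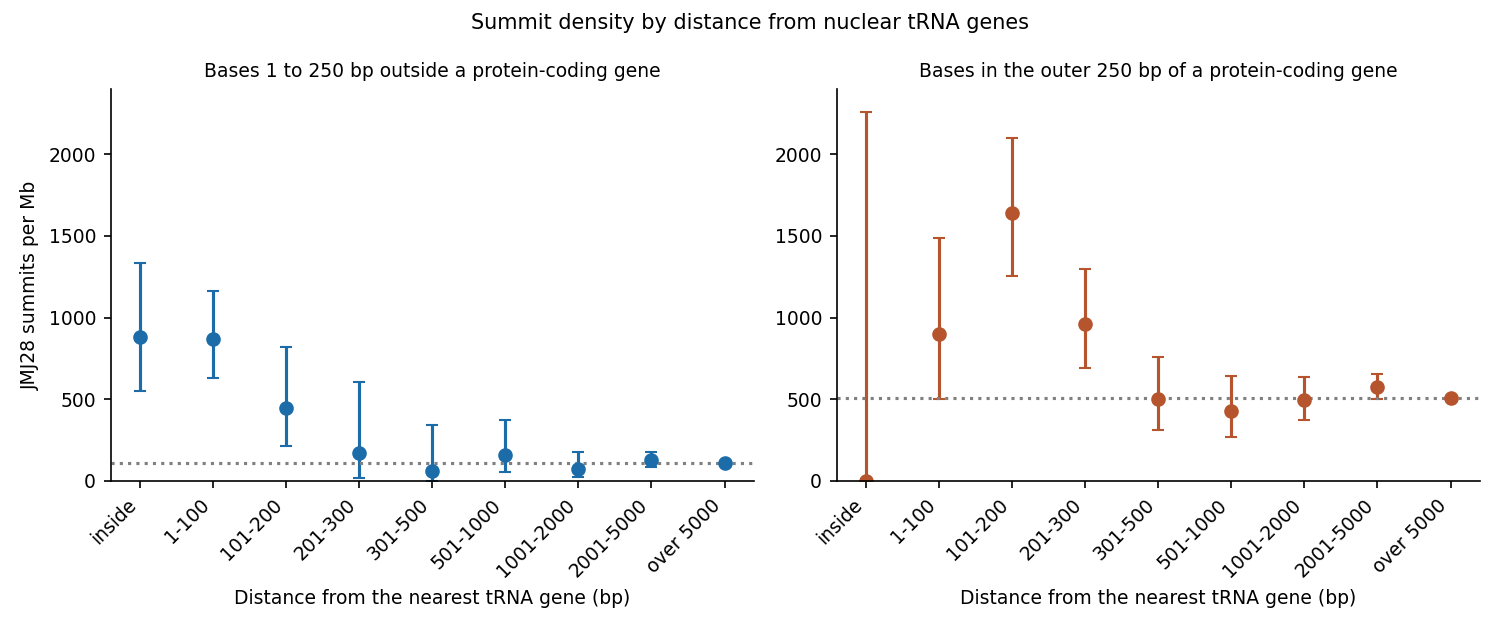
JMJ28 summits per Mb (vertical axis) against distance from the nearest nuclear tRNA gene in bp (horizontal axis), for bases 1 to 250 bp outside a protein-coding gene (left) and bases in the outer 250 bp of a protein-coding gene (right). Points are densities, bars exact 95% Poisson intervals, and dotted lines the density over 5000 bp from tRNA genes; outside genes the density was 880 per Mb inside tRNA genes, and inside protein-coding genes it reached 1640 per Mb at 101 to 200 bp, while the wide bar at its left end stands for 0 summits in 1.63 kb.

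Inside protein-coding genes the density was also high next to tRNA genes, with its maximum a little farther out. The outer 250 bp of protein-coding genes held 62 summits in 37.8 kb at 101 to 200 bp from a tRNA gene, or 1640 per Mb (interval 1257 to 2102), against 505 per Mb (interval 493 to 517) over 5000 bp from tRNA genes, a ratio of 3.25. At 201 to 300 bp the density was 960 per Mb (interval 692 to 1297), and at 301 to 500 bp it was 501 per Mb (interval 314 to 759), level with the genome at large. The neighbours also carried a summit more often: 439 of the 737 protein-coding genes within 1000 bp of a tRNA gene had one inside the gene (59.6%, interval 55.9 to 63.1). Of the 26707 farther away, 47.4% did. Their median length was 2300 bp, against 2074 bp. The higher share of the neighbours counts the summits beside the tRNA genes too, so it is not a separate observation from the density there. How far the one accounts for the other was not tested.

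The 2 ends of the same neighbour were then set side by side. Among protein-coding genes of 2000 bp or more, 299 overlapped no tRNA gene, had one within 300 bp of a single end and had none within 1000 bp of the other. The 500 bp inside the end facing the tRNA gene held a summit in 112 of them (37.5%, interval 32.0 to 43.2), against 96 for the far end (32.1%, interval 26.8 to 37.7). A summit at the facing end only was found in 83 genes, at the far end only in 67, at both ends in 29 and at neither in 120. The intervals of the shares overlap, but both ends belong to the same genes and the intervals ignore that pairing. Their overlap therefore does not show that the 2 ends are alike, and no test was made. The first 100 bp held 34 summits at facing ends and 20 at far ends, the next 100 bp held 37 and 28, and the third 20 and 29. The gene table gives no strand, so it is not known which of these ends are transcription starts.

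The tRNA genes with a summit in them or within 100 bp came from many amino acid families. Of these 106 genes, 100 were isolated, against 475 of all 625 tRNA genes. The highest score among summits in or within 100 bp of a tRNA gene was 73.3, inside the arginine tRNA gene AT5G05795, at position 1742697 of chromosome 5 (TAIR10) and 297 bp from the nearest protein-coding gene, AT5G05800. Next came 68.2 at the glycine tRNA gene AT3G58165 (chromosome 3, position 21542188), 94 bp from the tRNA gene and 61 bp outside XIJ, a myosin gene. The glycine tRNA gene AT5G59385 had a summit inside it (chromosome 5, position 23953956, score 61.6), 249 bp from MBD6, a gene of the methyl-CpG-binding domain family. A summit inside the cysteine tRNA gene AT5G41265 scored 48.6 (chromosome 5, position 16507569). These 4 scores were at or above those of 93.7% to 96.9% of nuclear summits.

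The following genes of this kind had scores between 19.97 and 35.9. Among them, the summit was inside the gene at the serine tRNA genes AT1G55625 (32.9), 137 bp from the chloride channel gene CLC-F, and AT3G02715 (19.97), near DJ1D. It was likewise inside the leucine tRNA gene AT3G10015 (29.1) and the tyrosine tRNA gene AT3G48515 (24.6), which lay beside CYP94B3, a gene of jasmonate turnover. It lay 1 bp from the leucine tRNA gene AT5G03745 (33.4), next to the histone deacetylase gene HD2C, and 51 bp from the methionine tRNA gene AT4G31695 (28.2), next to RPS6, which encodes a ribosomal protein. The others of the 20 highest were beside AT2G26090 (leucine), AT1G15450 (tryptophan, near the boron transporter gene BOR4), AT5G02505 (histidine), AT2G42020 (serine, near the phospholipase gene PLDBETA1), AT3G20655 (arginine), AT5G50995 and AT5G03445 (tyrosine), AT3G05835 (isoleucine) and AT1G61880 (tryptophan). Only AT1G17670, a valine tRNA gene (25.9), was among these 20 as part of an array, a pair.

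A protein-coding neighbour went with a summit in the region. Of the 497 tRNA genes that overlapped a protein-coding gene or had one at most 1000 bp away, 340 had a summit (68.4%, interval 64.1 to 72.5), against 6 of the other 128 (4.69%, interval 1.74 to 9.92). The difference was 63.7 percentage points (Newcombe 95% interval 57.1 to 68.4). Of those 128, however, 99 were in arrays, 81 of them in a single array. Among isolated tRNA genes alone the shares were 321 of 446 (72.0%) with a neighbour and 4 of 29 (13.8%, interval 3.89 to 31.7) without, a difference of 58.2 points (interval 40.9 to 67.4). Most nuclear summits lay inside protein-coding genes, and a region with such a neighbour also covers bases of that gene. Counting only summits outside protein-coding genes, the shares were 23.1% of the 497 and 4.69% of the 128, a difference of 18.5 points (interval 12.2 to 23.1) in place of 63.7.

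The share depended on how near and how many the neighbours were. It was 77.1% of 218 tRNA genes at 1 to 100 bp from a protein-coding gene, 75.6% of 123 at 101 to 250 bp, 49.0% of 51 at 251 to 500 bp and 33.3% of 42 at 501 to 1000 bp. Just past the limit of 1000 bp, 4 of 29 tRNA genes at 1001 to 2000 bp had a summit (13.8%). Of the 63 tRNA genes that overlapped a protein-coding gene, 40 had a summit (63.5%), and among the isolated ones 35 of 43 (81.4%). Whether these tRNA genes lie in exons, introns or UTRs was not analysed here. With 1 protein-coding gene in reach, 111 of 215 tRNA genes had a summit (51.6%), with 2 such genes 217 of 270 (80.4%), and with 3 or more 12 of 12 (100%, interval 73.5 to 100).

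**Figure D2:**
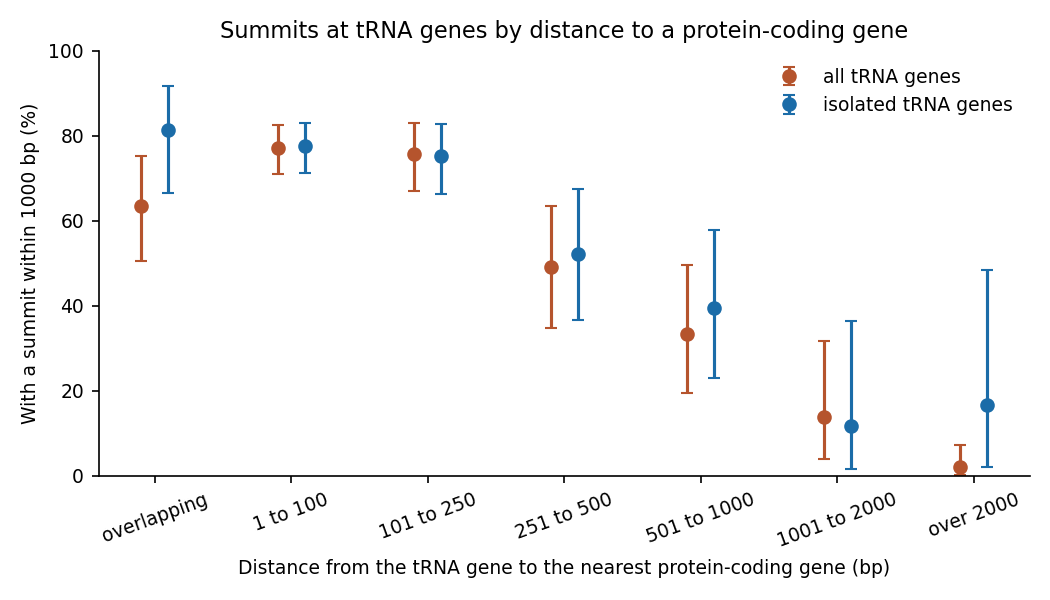
Share of tRNA genes with a JMJ28 summit within 1000 bp in percent (vertical axis) against the distance to the nearest protein-coding gene in bp (horizontal axis), for all and for isolated tRNA genes. Points are shares and bars exact 95% binomial intervals; for all tRNA genes the share was 77.1% at 1 to 100 bp, 33.3% at 501 to 1000 bp and 13.8% at 1001 to 2000 bp.

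Counted per gene, tandem tRNA genes, those with another tRNA gene within 1000 bp, had a lower share with a summit than isolated ones. The count was 21 of 150 tandem genes (14.0%, interval 8.88 to 20.6) and 325 of 475 isolated genes (68.4%, interval 64.0 to 72.6), a difference of -54.4 percentage points (Newcombe 95% interval -60.6 to -46.7). None of the tandem genes had a summit inside it (0 of 150, which allows a share of up to 2.00%), against 29 of 475 isolated genes (6.11%, interval 4.13 to 8.65). Within 100 bp the counts were 6 of 150 (4.0%) and 100 of 475 (21.1%). Near protein-coding genes 19 of 51 tandem genes (37.3%, interval 24.1 to 51.9) and 321 of 446 isolated genes had a summit, a difference of -34.7 points. Counted per region, with overlapping regions merged, the direction turned: 12 of 17 regions with tandem genes (70.6%) and 68.8% of 468 regions with isolated genes had a summit, a difference of 1.78 points (interval -22.3 to 18.5). A merged region of an array is longer than that of an isolated gene and counts once, however many genes it holds.

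The low share per gene was found in the larger arrays and not in pairs, a split made after the values were seen. The 150 tandem genes formed 19 arrays, of which 9 were pairs. In pairs, 14 of 18 genes had a summit (77.8%, interval 52.4 to 93.6), against the 68.4% of isolated genes. In the 10 arrays of 3 or more, it was 7 of 132 genes (5.30%, interval 2.16 to 10.6), and 7 of 51 (13.7%) without the largest array, which holds the other 81. Per array, 5 of these 10 arrays and 7 of the 9 pairs had a summit in their region. Of these 132 genes, 33 were within 1000 bp of a protein-coding gene, and 5 of the 33 had a summit (15.2%, interval 5.11 to 31.9). Among isolated genes with such a neighbour it was 321 of 446 (72.0%, interval 67.6 to 76.1). The 33 genes lie in 8 arrays and some share a summit, so they are not 33 independent observations. They include 3 genes from AT2G07752 to AT2G07754 and 6 from AT2G07759 to AT2G07765, none with a summit. Those arrays lie in a stretch of chromosome 2 where isolated tRNA genes had no summit either (0 of 14). The 2 groups thus differ in location as well as arrangement. Isolated genes whose next tRNA gene was just beyond the limit, at 1001 to 5000 bp, included 30 of 50 with a summit (60.0%, interval 45.2 to 73.6).

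**Figure D3:**
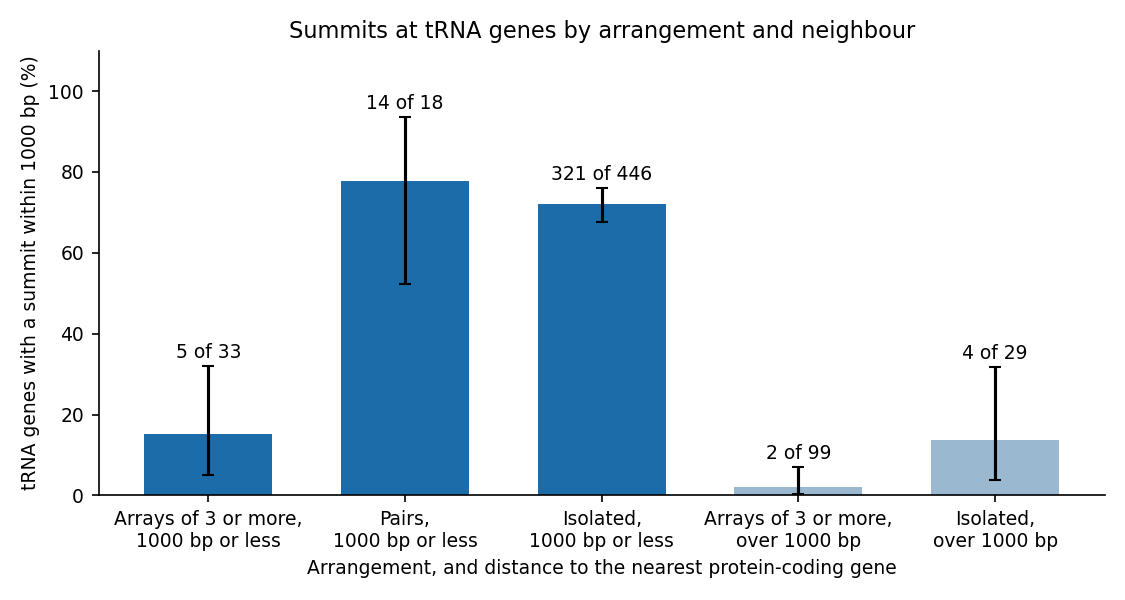
Share of tRNA genes with a JMJ28 summit within 1000 bp in percent (vertical axis), by arrangement and by whether a protein-coding gene lies within 1000 bp (dark bars) or not (light bars). Error bars are exact 95% binomial intervals and the counts stand above them; with a protein-coding neighbour, 5 of 33 genes in arrays of 3 or more, 14 of 18 in pairs and 321 of 446 isolated genes had a summit.

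The largest array, from AT1G56730 to AT1G57530 on chromosome 1, held 54 tyrosine and 27 serine tRNA genes over 39.7 kb, with a median gap of 373 bp. None of its 81 genes had a summit in the region (0 of 81, which allows a share of up to 3.70%), none was within 1000 bp of a protein-coding gene, and the nearest summit was 2.94 kb away. The array of 11 proline tRNA genes from AT1G28820 to AT1G28920 had 1 summit in its region (score 31.0), 788 bp from the nearest tRNA gene of the array. The array of 9 proline tRNA genes on chromosome 2, from AT2G33890 to AT2G33970, also had 1 summit, of score 7.92 and 144 bp away. All 9 genes overlapped the same protein-coding gene, NUDT22, and the summit lay inside that gene too. The array of 6 proline tRNA genes from AT1G28930 to AT1G28990 had 1 summit of score 12.6, which lay 69 bp from it and within 1000 bp of 3 of its genes. The array of 4 cysteine tRNA genes from AT5G20852 to AT5G20858 on chromosome 5 had 1 summit of score 68.2, the highest beside any array, which lay 742 bp from it. At most 1 summit was thus found beside each of these arrays.

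No summit lay between the first and the last tRNA gene of any of the 10 larger arrays. Their combined span was 63.5 kb, and 0 summits there allow a density of up to 47.2 per Mb. That is below the 596 per Mb found outside protein-coding genes within 100 bp of tRNA genes. The spans, however, include gap bases over 100 bp from a tRNA gene. Outside protein-coding genes the density was 262 per Mb at 101 to 200 bp and 75.7 per Mb at 201 to 300 bp. The limit of 47.2 per Mb is not below the 37.4 per Mb found outside protein-coding genes over 5000 bp from tRNA genes. The spans also take in bases inside protein-coding genes, whose density over 5000 bp from tRNA genes was 249 per Mb. Of the 10 arrays, 7 hold tRNA genes of a single amino acid. Repeated copies can make reads hard to place, and whether reads could be placed uniquely in the arrays was not tested. A lack of callable sequence and a lack of JMJ28 there cannot be told apart. The pair with most summits was that of the lysine tRNA genes AT1G79290 and AT1G79300, with 2 summits of up to 42.6, 262 bp or more from them, while every other array had at most 1. The pair of alanine tRNA genes AT3G63003 and AT3G63006 was the sole array with a summit within its span (score 7.36).

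The lowest shares by amino acid were those of tyrosine, proline and serine, which have many genes in arrays. The table named an amino acid for 623 of the 625 genes, and all 20 had 10 or more genes. Tyrosine had the lowest share, 11 of 75 (14.7%, interval 7.56 to 24.7), with 76.0% of its genes in arrays. Proline followed with 24 of 66 (36.4%, interval 24.9 to 49.1) and 62.1% in arrays, and serine with 27 of 64 (42.2%, interval 29.9 to 55.2) and 45.3% in arrays. Among the isolated genes of these amino acids, the shares were 11 of 18 for tyrosine (61.1%), 18 of 25 for proline (72.0%) and 27 of 35 for serine (77.1%), values within the range of the other amino acids. Cysteine, with 7 of 15 genes in arrays, had 10 of 15 overall (66.7%) and 7 of 8 among isolated genes (87.5%, interval 47.3 to 99.7).

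The highest shares were those of phenylalanine with 13 of 16 (81.3%), arginine with 29 of 36 (80.6%, interval 64.0 to 91.8), histidine with 8 of 10 (80.0%) and isoleucine with 17 of 22 (77.3%), none of which had a gene in an array. Aspartate (73.1%), tryptophan (71.4%), glutamine (70.6%), lysine (70.0%), alanine (69.7%), leucine (67.5%), valine (66.7%), glycine (65.9%), glutamate (62.5%) and threonine (62.5%) followed. Methionine with 11 of 24 (45.8%, interval 25.6 to 67.2) and asparagine with 7 of 16 (43.8%, interval 19.8 to 70.1) were low although 0 and 2 of their genes were in arrays. For asparagine the interval includes the 68.4% of isolated genes. For methionine, the lowest isolated amino acid with over 20 genes, the interval ends just below that value. The methionine genes AT2G07755, AT2G07758 and AT2G07794 are among 14 isolated genes in 1 stretch of chromosome 2, none of which had a summit. The methionine share without them was not computed. Among isolated genes the shares ran from 42.9% (asparagine) to 87.5% (cysteine), with overlapping intervals. Summits in or within 100 bp of the gene were found at 12 of 41 glycine genes (29.3%) and 11 of 36 arginine genes (30.6%), against 4 of 66 proline genes (6.06%) and 2 of 24 methionine genes (8.33%).

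**Figure D4:**
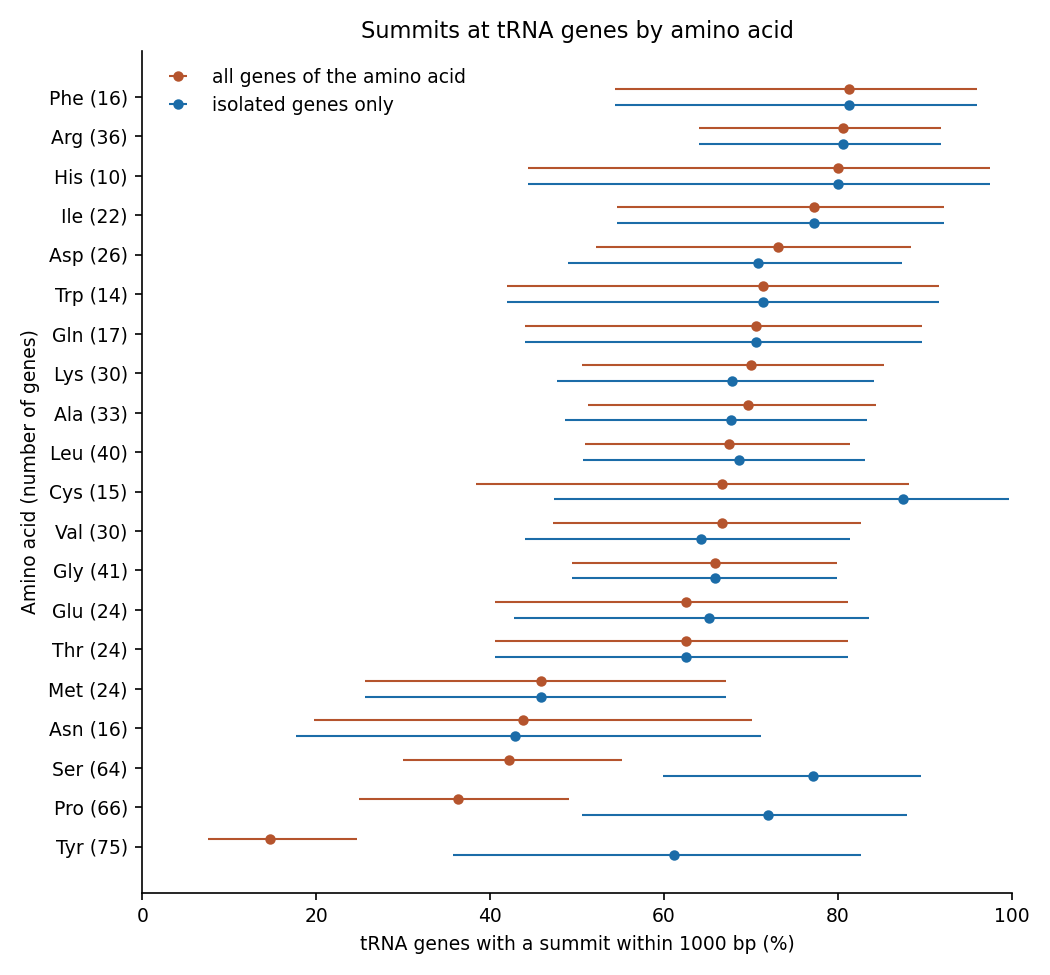
Share of tRNA genes with a JMJ28 summit within 1000 bp in percent (horizontal axis) for each amino acid, with its number of genes in brackets (vertical axis), for all genes and for isolated genes. Points are shares and bars exact 95% binomial intervals; tyrosine, proline and serine had 14.7%, 36.4% and 42.2% over all genes and 61.1%, 72.0% and 77.1% over isolated genes.

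Summits in tRNA regions had a median score of 10.9 (95% interval of the median 9.37 to 12.2, interquartile range 5.82 to 21.2, 365 summits), against 9.07 (interquartile range 5.10 to 18.4) over all nuclear summits. At or above the nuclear median were 56.4% of the 365, and 60.6% of those inside protein-coding genes, against 50.6% of all nuclear summits inside such genes. The 105 summits in or within 100 bp of a tRNA gene had a median of 8.48, and those at 101 to 200 bp had the highest median by distance, 16.9 (83 summits, interquartile range 8.06 to 33.2), with 72.3% at or above the nuclear median. None of the 105 scored over 100, while 5 of all 365 did (1.37%, against 1.60% of nuclear summits).

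Of the 10 highest scores in tRNA regions, 8 lay inside a protein-coding gene, as did 246 of all 365 summits there. The highest, 211, was at position 5518408 of chromosome 1 inside WAKL6, a gene of the wall-associated kinase-like family, 274 bp from the lysine tRNA gene AT1G16100. The next, 208, was inside AT2G22230 (chromosome 2, position 9450003), 121 bp from the isoleucine tRNA gene AT2G22220. Both were at or above 99.7% of nuclear summits. They were followed by 148 inside AT3G12587, beside the arginine tRNA gene AT3G12585, 135 inside DIC2, a gene of a mitochondrial dicarboxylate carrier, beside the serine tRNA gene AT4G24565, and 109 inside PBCP, a gene of a photosystem II phosphatase, beside the glycine tRNA gene AT2G30180.

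The remaining scores of the 10 were between 83.8 and 94.0. They were 94.0 inside PTAC14, which encodes a protein of plastid transcription, near the threonine tRNA gene AT4G20115, and 89.9 inside AT3G02330, near the aspartate tRNA gene AT3G02335. A score of 89.2 lay inside AT2G47090, near the alanine tRNA gene AT2G47100. The 2 outside protein-coding genes were 90.6 (chromosome 1, position 2846728), which lay between the alanine tRNA gene AT1G08870, 120 bp away, and the histone gene H2AXA, 166 bp away, or beside both, and 83.8 (chromosome 5, position 25972576), 102 bp from the arginine tRNA gene AT5G65015 and 1 bp from ASN2, an asparagine synthetase gene. All 10 of these tRNA genes were isolated, as were 325 of the 346 tRNA genes with a summit in their region.

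**Figure D5:**
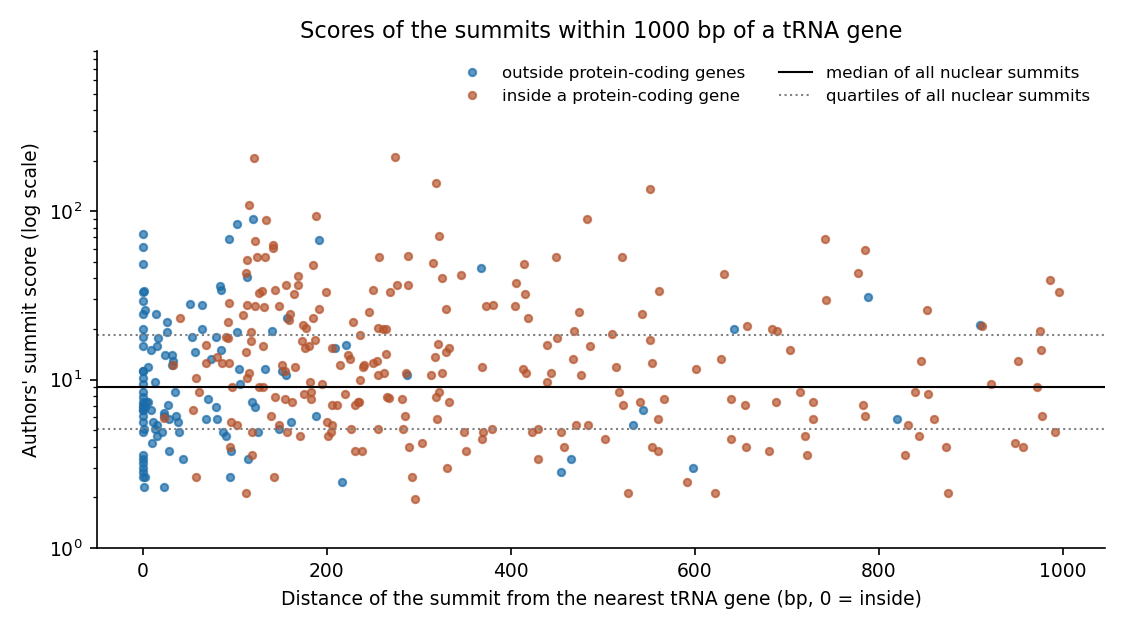
The authors' score of each of the 365 summits within 1000 bp of a tRNA gene (vertical axis, log scale) against its distance from the nearest tRNA gene in bp (horizontal axis), by whether it lies inside a protein-coding gene. The solid line is the median (9.07) and the dotted lines are the quartiles of all nuclear summits; summits in or within 100 bp of a tRNA gene reached 73.3 and the highest, 211, lay 274 bp away.

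Most of the listed protein-coding genes that make, process and charge tRNAs had a summit. Of 22 symbols listed for transcription by RNA polymerase III, processing, export and base modification, 17 were matched in the gene table, and 11 further genes were taken because the table names them as tRNA synthetases or a tRNA ligase. A summit within 1000 bp was found at 24 of these 28 genes (85.7%, interval 67.3 to 96.0), against 65.4% of all protein-coding genes, and inside the gene at 19 of 28 (67.9%, interval 47.6 to 84.1, which includes the background), against 47.7%. Gene lengths were not matched. All 11 genes named as synthetases or a ligase had a summit. Synthetase genes that the table does not name as such were not counted. The highest scores were at PSD (32.0), the tRNA exportin gene PAUSED, at OVA6 (31.0), a prolyl-tRNA synthetase gene, at RNL (28.7), whose product joins spliced tRNA exons, at DNMT2 (25.5), a tRNA methyltransferase gene, and at TAD1 (25.04) and ATKRS-1 (25.04), genes of a tRNA deaminase and a lysyl-tRNA synthetase, with these last 2 summits outside the gene. PRORP3, of RNase P, TRZ3, of the 3′ end nuclease RNase Z, and the deaminase genes TAD2 and TAD3 had none. NRPC1 and NRPC2, which encode the 2 largest subunits of RNA polymerase III, had scores of 14.6 and 5.58.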

How the data were processed

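Per the submitters' processing notes, Bowtie2 and MACS2 were used on the TAIR10 build. Tool versions, the peak threshold, any pooling and the use of the input were not given in the sources used here. What the authors deposited is 1 list of 1 bp summits with a score, and it does not state the scale of the score. It holds 790 distinct scores and no value per library, so the depth is unknown.

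Genes, types and extents came from the NCBI table of TAIR10.1, which has no strand or exons, and only summit positions are printed. As a check that both use the same coordinates, 52.7% to 53.5% of each chromosome's summits were at most 300 bp from an end of a protein-coding gene, against 26.7% to 28.1% when shifted by 5000 bp. Amino acids were read from the synonyms of the tRNA genes. Densities count summits per base between the first and last gene of each chromosome. Gene-poor windows of 500 kb have under 50% of their chromosome's median number of protein-coding genes, and a shorter last window of a chromosome can fall among them. The 47 tRNA genes of organelles were left out. In the machinery list, NRPC3, NRPC4, NRPC7 and BRF1 were not matched, and MAF1 was left out because the table gives that symbol to a flowering gene.

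Named genes are the tRNA genes with the 20 highest summits in or within 100 bp, those of the 10 highest scores in tRNA regions, the 3 largest arrays and those with most summits, all amino acids with 5 or more genes, and machinery genes with the 6 highest scores or no summit. NRPC1, NRPC2 and the further arrays were named after their values were seen. That tRNA genes were examined at all, and which groups and lists were compared, was decided with earlier results of these data known, although the rule for the members uses annotation only. Counting was checked on simulated data. The software was SciPy 1.17.1, statsmodels 0.14.6 (Newcombe intervals), pandas 2.3.3 and numpy 2.4.6 under Python 3.11.15, with matplotlib 3.10.9 for plots.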

Additional observations from a re-analysis of the deposited data

Results flagged for a closer look

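The chloroplast genome, which entered no comparison of nuclear tRNA genes, held 42 of the summits. Their median score was 125 (range 4.67 to 1743). They stand here because they lie outside all comparisons above, and they were not assigned to the plastid tRNA genes.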

How the results depend on the processing

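The share of tRNA genes with a summit (55.4%) was 46.7% with flanks of 500 bp, 65.6% with 2000 bp, 17.0% within 100 bp, 33.3% with scores at or above the nuclear median, 19.4% with summits outside protein-coding genes, 68.9% with overlapping regions merged and 63.6% without the array of 81 genes. The difference between tandem and isolated genes (-54.4 points) was -17.1 within 100 bp, -31.5 with the upper scores, -16.7 outside protein-coding genes, -34.7 near and -11.8 far from protein-coding genes, -38.0 without the largest array and -63.1 for arrays of 3 or more. It changed sign for pairs alone (9.36) and with merged regions (1.78), where an array counts once however many genes it holds and a summit at its edge is enough. The difference between tRNA genes with and without a protein-coding neighbour (63.7 points) was 54.8 with flanks of 500 bp, 18.4 within 100 bp, 38.9 with the upper scores, 18.5 outside protein-coding genes and 55.6 without the largest array. The density ratio of 15.9 was 7.90, 12.1 and 6.56 at 1 to 250, 251 to 500 and 501 to 1000 bp from protein-coding genes. The other 22 of 46 alternatives stayed within the interval of the main value, and the alternatives for arrays, densities, amino acids and machinery genes were chosen after seeing the data. No analysis paired by library was possible because the list has no value per library, so no replicate could be left out either.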

Other observations

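The share of isolated tRNA genes with a summit was lowest on chromosome 2, at 35 of 71 (49.3%, interval 37.2 to 61.4). It was 68.9% on chromosome 1 (interval 59.8 to 76.9), 72.7% on chromosome 3 (interval 62.2 to 81.7), 70.7% on chromosome 4 (interval 59.0 to 80.6) and 74.8% on chromosome 5 (interval 66.0 to 82.3). The intervals of chromosomes 1 and 4 overlap that of chromosome 2, and no test was made. A single stretch of chromosome 2, from AT2G07743 to AT2G07766, held 14 isolated tRNA genes, none with a summit (0 of 14, which allows a share of up to 21.4%), and without it the share was 35 of 57 (61.4%, interval 47.6 to 74.0). The same stretch held the arrays farthest from any summit, AT2G07752 to AT2G07754 with glutamate, tyrosine and serine tRNA genes, and AT2G07759 to AT2G07765 with tRNA genes of 5 amino acids. All 9 genes of these arrays had a protein-coding gene within 1000 bp, and the nearest summits were 114090 bp and 129841 bp away. These values were picked after they were seen. Whether reads could be placed uniquely in this stretch was not tested. A lack of callable sequence and a lack of JMJ28 cannot be told apart here either.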
